A study of Drosophila melanogaster with 4 samples.

Results

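The small subunit of the cytosolic ribosome, the 40S subunit, is built in Drosophila from 1 rRNA and a set of proteins named RpS, together with sta, the fly homologue of the vertebrate laminin-receptor protein RpSA. The genes taken were all those in the count table whose symbol starts with RpS and a digit, plus sta, which gave 39 of 17807 genes. They were split by name into 33 main genes and 6 minor paralogs (RpS5b, RpS10a, RpS15Ab, RpS19b, RpS28a and RpS28-like). RpS14a and RpS14b, near-identical neighbours on the X, were both kept as main genes. RpS3A, RpS15Aa and RpS27A are genes of their own family and not copies of RpS3, RpS15 and RpS27.

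Gut RNA was sequenced from females 7 days old, with 2 libraries of WT, the yw strain, and 2 of wh7, a mutant allele of dwdr4. Each replicate was a pool of 20 to 30 guts, described by the study as a biological replicate, and stocks were kept on a standard cornmeal diet. The study obtained wh7 homozygous females by crossing mutant males that carried a dwdr4-gfp transgene with wh7/FM7c females, and used daughters without the transgene. The mutation is present in every cell of the fly, and WT was a separate strain, so genotype and strain background cannot be told apart. In whole guts, fewer cells of a type and less RNA per cell cannot be told apart either.

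The libraries held 93603837 to 101610356 counts. The mutated gene dwdr4, listed as wuho, had 1489 and 1256 counts in WT replicates 1 and 2 and 2 and 3 counts in wh7 replicates 1 and 2, as the labels say (adjusted p = 0.021, edgeR's quasi-likelihood test). Of 10795 genes with enough counts to test, 52 passed an adjusted p of 0.05 (0.482%), and 0 did when either wh7 library was left out, wuho and the marker genes named at the end included. Enterocyte, enteroendocrine and visceral muscle markers were detected in every library, and all 5 male germline markers had 0 counts in every library. Values below are counts per 1000000 counts (CPM) after scaling by the trimmed mean of M-values (TMM), and changes are wh7 over WT on the log2 scale, with their standard errors (SE). With 2 libraries against 2, the smallest two-sided p of an exact permutation test on 1 gene is 0.33, so the tests of single genes draw on variability that edgeR pools over the whole table.

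Each ribosome carries 1 copy of every small-subunit protein, so cells make these proteins in matched amounts, and their mRNAs are known to be abundant and to be translated under the control of TOR. The 40S subunit holds the decoding site, where the anticodon of a tRNA meets the codon, and binds the initiation factors that load the mRNA. Loss of 1 gene copy of many of these proteins gives the Minute phenotype in flies, with slow growth and short bristles.

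The small-subunit genes were a little higher in wh7 guts as a group. Together they took 1.51% and 1.23% of all counts in WT replicates 1 and 2 and 1.72% and 1.76% in wh7 replicates 1 and 2. On the CPM scale their sums were 14513 and 12806 in WT and 17412 and 17384 in wh7, a log2 ratio of 0.35 between the genotype means. Both wh7 sums lay above both WT sums, and the wh7 pair differed by far less than the WT pair. The log2 ratio became 0.44 when WT replicate 1 was left out and 0.26 when WT replicate 2 was.

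**Figure D1:**
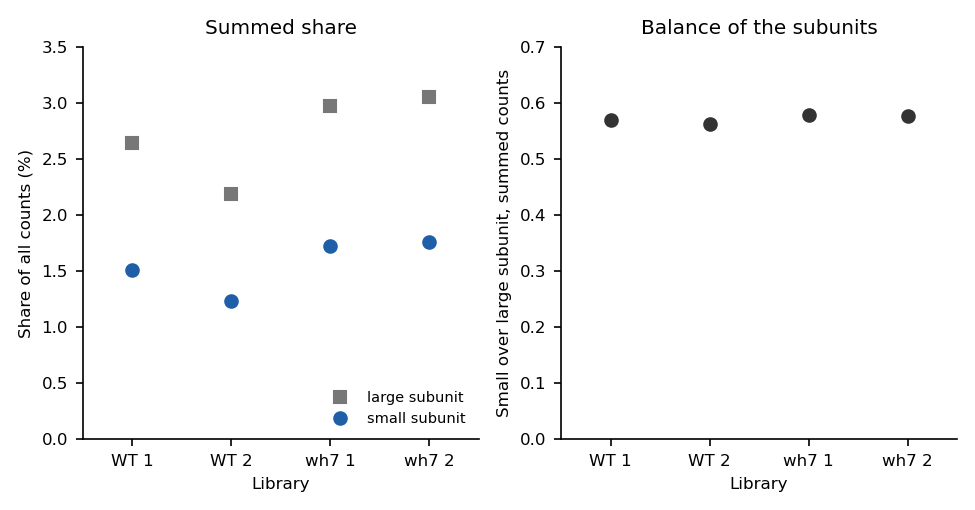
Share of all counts (percent, left) taken by the small-subunit and large-subunit ribosomal protein genes, and the ratio of the 2 sums (right), with 1 point per library. The small-subunit share was 1.51% and 1.23% in WT and 1.72% and 1.76% in wh7, while the ratio stayed between 0.563 and 0.579.

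Of the 39 genes, 35 had enough counts to be tested, and 33 of these had a higher mean in wh7. The median log2 change of the 35 was 0.37, against -0.02 over all genes tested. For 31 of them (88.6%) both wh7 libraries lay above both WT libraries, which was so for 23.8% of all genes tested. At an unadjusted p under 0.05, 18 were higher in wh7 (51.4%, against 7.23% of all genes) and 0 were lower. An adjusted p under 0.05 was reached by 0 of the 35 in edgeR's quasi-likelihood test, and the smallest adjusted p was 0.175, for RpS26. DESeq2's Wald test gave 5 genes an adjusted p under 0.05, among them RpS26, RpS7, RpS28b and RpS15, all higher in wh7 (14.3%, against 3.94% of all genes). The count of 18 at an unadjusted p under 0.05 was 31 without WT replicate 1, 18 without WT replicate 2, and 0 without either wh7 replicate. Genes of the set share their 4 libraries, so they are not separate observations of the genotypes.

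**Figure D2:**
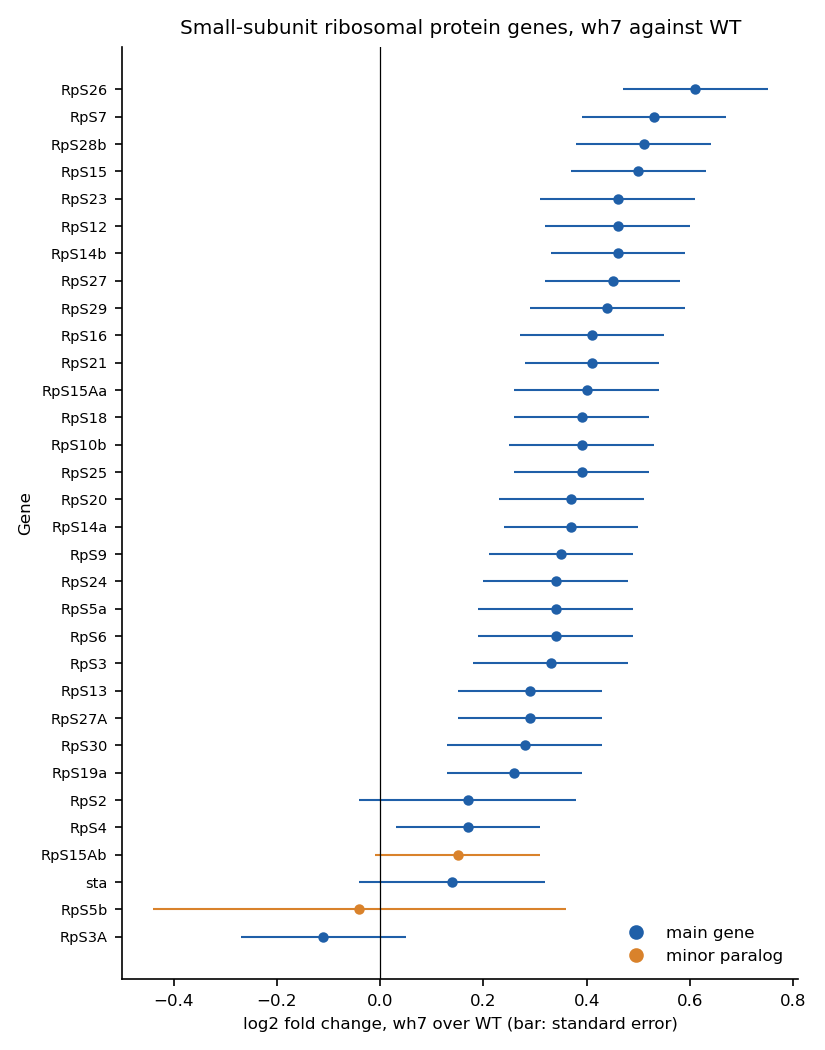
Log2 change of wh7 over WT for 32 of the 35 small-subunit genes tested, with bars of 1 SE. Main genes run from -0.11 for RpS3A to 0.61 for RpS26, and the minor paralogs RpS5b and RpS15Ab lie at -0.04 and 0.15.

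Among the 33 main genes the fold changes lay close together. The median was 0.39, the quartiles were 0.29 and 0.46, and 32 of the 33 were above 0. The interquartile range of 0.16 compares with 0.52 over all genes tested, whose median SE was 0.23 against 0.14 for the main genes. It was 0.18 for the large-subunit genes and 0.19 for those of the mitochondrial small subunit, so a narrow spread was not particular to this set. SEs of the main genes ran from 0.13 to 0.21, so most neighbours in this order did not differ beyond their error. In the ranking of all genes tested by fold change, main genes stood between the 40.1th and the 89.5th percentile, with 29 of the 33 above the 75th and 0 above the 90th. Their shift was therefore modest in size, and narrow in spread beside that of all genes tested.

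**Figure D3:**
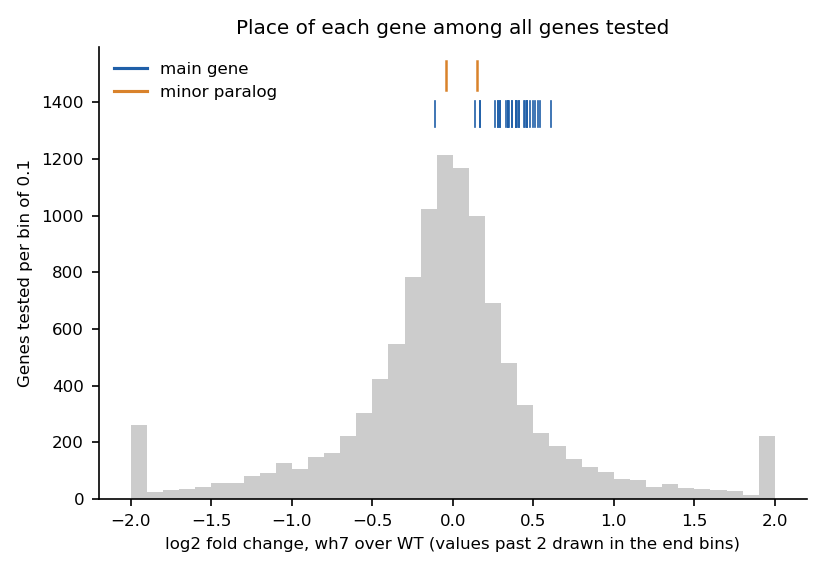
Histogram of the log2 changes of all 10795 genes tested (grey), with a tick above it for each main gene (blue, lower row) and each minor paralog tested (orange, upper row). The blue ticks gather around the median of 0.39, and the histogram is centred near -0.02.

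The highest fold change belonged to RpS26, a protein of the platform beside the mRNA exit channel. RpS26 (chromosome arm 2L) had 475 and 435 CPM in WT replicates 1 and 2 and 704 and 683 in wh7 replicates 1 and 2. Its log2 change was 0.61 (SE 0.14, adjusted p = 0.175 in edgeR's quasi-likelihood fit and 0.0115 from DESeq2's Wald test). It lay between 0.54 and 0.67 whichever library was left out. The wh7 libraries stood clear of the WT libraries by more than either pair differed within itself.

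RpS7, on the body, had 718 and 659 CPM in WT and 984 and 1007 in wh7, a log2 change of 0.53 (SE 0.14, adjusted p = 0.213, edgeR's quasi-likelihood test). Its genotypes did not overlap, and the log2 change lay between 0.46 and 0.59 whichever library was left out.

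RpS28b, a small head protein near the mRNA exit, had 260 and 257 CPM in WT and 378 and 359 in wh7, with a log2 change of 0.51 (SE 0.13). For RpS15, which reaches the decoding site from the head, the values were 467 and 443 CPM in WT and 648 and 635 in wh7, a log2 change of 0.50 (SE 0.13). In both genes, too, the wh7 libraries were above the WT libraries, with edgeR adjusted p values of 0.204 and 0.221.

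RpS3A was the only main gene with a lower mean in wh7. This protein lies next to RpS26 on the platform, and its gene is the only member on chromosome 4. It had 597 and 507 CPM in WT replicates 1 and 2 and 527 and 493 in wh7 replicates 1 and 2, so the genotypes overlapped. The log2 change was -0.11 (SE 0.16, adjusted p = 0.803 in edgeR's quasi-likelihood fit), and it was 0.01 without WT replicate 1. As a share of all small-subunit counts, RpS3A took 4.11% and 3.96% in WT and 3.03% and 2.83% in wh7, and here the genotypes did not overlap. The share of RpS26 went the other way, from 3.27% and 3.39% in WT to 4.04% and 3.93% in wh7. RpS3A and RpS26 were the ends of the fold-change range among main genes.

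RpS2 and sta overlapped between the genotypes as well. RpS2, at the mRNA entry channel, had 587 and 418 CPM in WT and 562 and 569 in wh7, a log2 change of 0.17 (SE 0.21). It was -0.06 without WT replicate 2. The values of sta were 1105 and 875 CPM in WT and 1076 and 1113 in wh7, a log2 change of 0.14 (SE 0.18), which became -0.02 without WT replicate 2. For both genes WT replicate 1 was near the wh7 libraries and WT replicate 2 was low.

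RpS4, RpS19a and RpS30 were the other main genes with the lowest fold changes. RpS4, of the body, had 460 and 420 CPM in WT and 507 and 485 in wh7 (log2 change 0.17, SE 0.14). RpS19a, of the head, had 273 and 251 CPM in WT and 320 and 309 in wh7 (log2 change 0.26, SE 0.13). RpS30, made as a fusion with a ubiquitin-like protein and placed near the mRNA entry, had 414 and 361 CPM in WT and 460 and 479 in wh7 (log2 change 0.28, SE 0.15). All 3 had both wh7 libraries above both WT libraries, by margins smaller than those of RpS26.

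**Figure D4:**
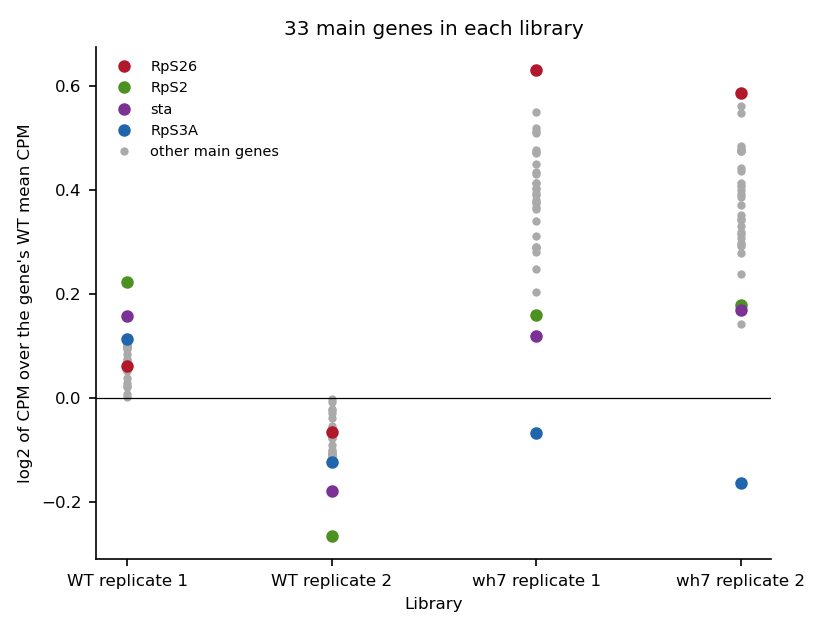
Log2 of each main gene's CPM over its own WT mean, in each library, with 1 point per gene. All 33 genes sit higher in WT replicate 1 than in WT replicate 2, and of the wh7 points only those of RpS3A lie below 0.

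The 2 WT libraries differed from each other in the same direction for every main gene. WT replicate 1 exceeded WT replicate 2 in 33 of 33 main genes, by a median of 0.14 on the log2 scale and by up to 0.49, in RpS2. In wh7 the median difference between replicates 1 and 2 was 0.01, with values from -0.07 to 0.10, and replicate 1 was higher in 17 of 33. Over all genes tested, WT replicate 1 was the higher in 5312 of 10795. Leaving out WT replicate 1 gave the main genes a median of 0.45, and leaving out WT replicate 2 one of 0.33, so the shift was larger than the WT difference under each choice.

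Genes known for roles beyond the ribosome's core lay inside the range of the others. RpS6, the substrate of S6 kinase in TOR signalling, had 732 and 628 CPM in WT and 861 and 863 in wh7 (log2 change 0.34, SE 0.15, adjusted p = 0.417 in edgeR's quasi-likelihood fit). RpS3, a head protein at the mRNA entry that also carries a DNA-repair activity, had 559 and 486 CPM in WT and 648 and 662 in wh7 (log2 change 0.33, SE 0.15). RpS27A, made as a fusion with ubiquitin, had 636 and 590 CPM in WT and 750 and 752 in wh7 (log2 change 0.29, SE 0.14). In each of them the genotypes did not overlap.

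RpS12, a protein of the head's beak, is required in flies for the induction of the transcription factor Xrp1 in cells short of a ribosomal protein. It had 171 and 148 CPM in WT and 222 and 216 in wh7, a log2 change of 0.46 (SE 0.14, adjusted p = 0.275 in edgeR's quasi-likelihood fit). Xrp1 itself had 1975 and 1691 CPM in WT and 2034 and 1999 in wh7, a log2 change of 0.14 (SE 0.16). Its partner Irbp18 had a log2 change of 0.17 (SE 0.18), with 10.5 and 10.3 CPM in WT and 10.4 and 12.9 in wh7. Xrp1 did not overlap between the genotypes and Irbp18 did.

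Another 11 main genes were RpS9, RpS13, RpS16, RpS18, RpS20, RpS21, RpS23, RpS24, RpS25, RpS27 and RpS29. All 11 had both wh7 libraries above both WT libraries, which was so for 23.8% of all genes tested. Main genes whose genotypes overlapped are described apart, so the choice of these 11 left none that overlapped. The log2 changes of the 11 ran from 0.29 for RpS13 to 0.46 for RpS23, with edgeR adjusted p values from 0.237 to 0.467. RpS23, which sits at the decoding centre, had 478 and 407 CPM in WT and 598 and 615 in wh7. RpS9, which lies in the body and is known for a role in decoding accuracy, had 249 and 226 CPM in WT and 305 and 298 in wh7, a log2 change of 0.35. RpS29, a zinc-binding head protein, had 586 and 505 CPM in WT and 721 and 758 in wh7, a log2 change of 0.44. RpS23, RpS9 and RpS29 were chosen for description after their values were seen.

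Position in the subunit was compared after the values had been seen, with the head and body proteins assigned from the known eukaryotic 40S structure. All 14 head genes had a higher mean in wh7 with no overlap, with a median log2 change of 0.39 and a lowest value of 0.26, for RpS19a. Of the 19 genes of the body and platform, 18 had a higher mean and 16 did not overlap, with a median of 0.35. Over all genes tested, both wh7 libraries lay above both WT libraries in 23.8%. The main genes that overlapped, RpS3A, RpS2 and sta, were all in the body and platform group. The body and platform held both ends of the order, RpS3A at -0.11 and RpS26 at 0.61. The difference between the medians was not tested.

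Most minor paralogs were not detected in the gut at this depth. RpS10a, RpS28a and RpS28-like had 0 counts in all 4 libraries, which allows up to 3 counts in each. RpS19b had 4 counts in WT replicate 2 and 0 in the others. None of these 4 genes passed the filter on low counts, so no fold change is given for them. RpS5b and RpS19b are known in flies for expression in the germline. The female germline and ovary markers summed to 8.47 and 6.81 CPM in WT and 7.20 and 7.31 in wh7, most of it from ovo, and bam had 0 counts throughout.

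RpS5b was detected at trace level, with 0.685 and 0.499 CPM in WT replicates 1 and 2 and 0.622 and 0.534 in wh7 replicates 1 and 2. Its genotypes overlapped, with a log2 change of -0.04 (SE 0.40). The main gene RpS5a had 609 and 525 CPM in WT and 731 and 708 in wh7, a log2 change of 0.34 (SE 0.15). Per kilobase of exon, RpS5a exceeded RpS5b by 610-fold and 722-fold in WT and 807-fold and 909-fold in wh7.

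RpS15Ab had 8.92 and 8.29 CPM in WT and 9.87 and 9.20 in wh7, a log2 change of 0.15 (SE 0.16). Both wh7 libraries lay above both WT libraries, by a margin smaller than the gap within either pair. Its main partner RpS15Aa, the uS8 protein of the body, had 406 and 368 CPM in WT and 504 and 516 in wh7, a log2 change of 0.40 (SE 0.14). Per kilobase the main gene exceeded the minor one by 34.9-fold and 34.0-fold in WT and 39.2-fold and 43.0-fold in wh7. Reads of such similar genes could have been assigned to the wrong copy, so the low level of RpS15Ab is uncertain.

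RpS10b, the main gene of a head protein at the mRNA entry, had 393 and 363 CPM in WT and 495 and 496 in wh7 (log2 change 0.39, SE 0.14), while RpS10a had no counts. RpS28b, described above, was likewise the only detected gene of its group. The RpS14 pair, by contrast, was expressed from both copies. RpS14a had 174 and 173 CPM in WT and 226 and 225 in wh7, a log2 change of 0.37 (SE 0.13). RpS14b had 109 and 106 CPM in WT and 147 and 150 in wh7, a log2 change of 0.46 (SE 0.13). Their exon lengths, with all annotated exons of a gene merged, were 877 bases for RpS14a and 597 for RpS14b. The ratio of RpS14a to RpS14b per kilobase was 1.08 and 1.11 in WT and 1.05 and 1.02 in wh7. That near-equality rests on these lengths, and reads could have been split between the 2 copies.

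Levels of different genes were compared per kilobase of exon, with exon lengths from the BDGP6.54 annotation. All annotated exons of a gene were merged, so the length can exceed that of the transcripts made, and the order of levels depends on this choice. In WT, RpS27A had the highest level among main genes, with a mean of 1035 CPM per kilobase, and RpS21 the lowest, with 162, a 6.39-fold range. Next to RpS27A came sta with 740. The order hardly changed with genotype: Spearman's rho between the WT and wh7 levels of the 33 main genes was 0.98 (Pearson's r 0.98 on the log2 scale). Fold change bore little relation to level in WT (rho -0.16) and a weak inverse one to exon length (rho -0.34). Its strongest relation among those computed was with the log2 excess of WT replicate 1 over WT replicate 2 (rho -0.42, Pearson's r -0.49). Fold change and that excess use the same WT libraries, and the reason for their relation was not tested. These are descriptions across genes, which share their libraries and are not independent replicates.

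**Figure D5:**
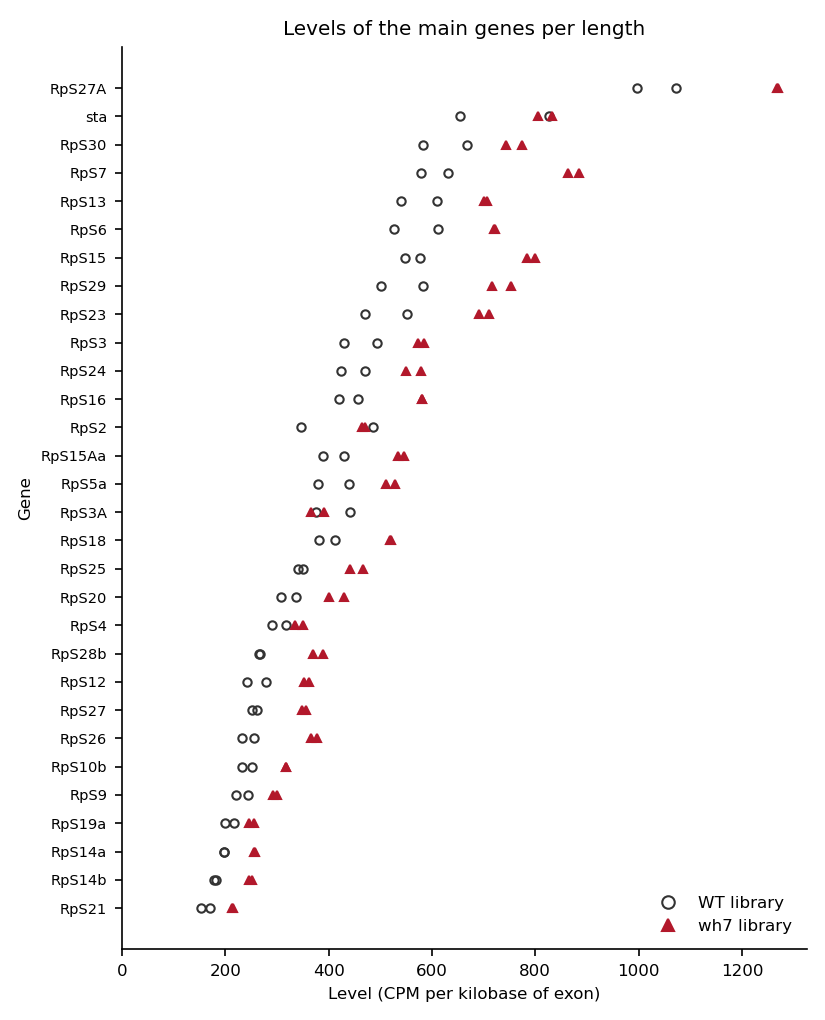
Level of 30 of the 33 main genes in CPM per kilobase of exon, with an open circle for each WT library and a filled triangle for each wh7 library, ordered by the WT mean. Levels run from a WT mean of 162 for RpS21 to 1035 for RpS27A, and in 27 of the 30 genes drawn both triangles lie to the right of both circles.

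Measured as shares of all small-subunit counts, 16 main genes had both wh7 libraries above both WT libraries, 8 had both below, and 9 overlapped. RpS4, among the 8, took 3.17% and 3.28% in WT and 2.91% and 2.79% in wh7. RpS7 went from 4.95% and 5.15% in WT to 5.65% and 5.79% in wh7. The largest single share was that of sta, also among the 8, with 7.62% and 6.83% in WT and 6.18% and 6.40% in wh7. A share can fall because others grew, and these values describe only proportions within the set.

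The main genes are scattered over the genome, and the shift was seen on every large arm. The 9 genes on the X had a median log2 change of 0.37, the 5 on 2L 0.29, the 6 on 2R 0.43, the 4 on 3L 0.40 and the 8 on 3R 0.38. All of these had a higher mean in wh7, including those on the X, which also carries dwdr4.

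A feature that the choice of genes did not use is the presence of snoRNA genes, which guide rRNA modification and are often encoded in introns of ribosomal protein genes. In the annotation, 13 of the 33 main genes (39.4%) held at least 1 snoRNA gene on their strand, against 0.605% of all protein-coding genes in the table. RpS5a held 14 and RpS7 held 7. The 13 hosts had a median log2 change of 0.35 and the 20 other main genes one of 0.39, and the difference was not tested. Exons of 9 main genes overlapped those of another gene, by as much as 512 bases for RpS9, against a gene on the opposite strand. Whether the counting used the strand is not given in the sources used here, so reads of these overlaps cannot be placed with certainty.

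Among the main genes, 20 belong to a list of changed ribosomal protein genes drawn up from these same libraries, so their direction is not independent evidence. That list is of single transcripts, while the values here are counts per gene, so a gene's value need not follow that of its listed transcript. Of these 20 genes, 19 had a higher mean in wh7. The median log2 change of the 20 was 0.42, and RpS3A had a lower mean, though its listed transcript is given as higher. The other 13 main genes, which that list leaves out, all had a higher mean, with a median of 0.29 and a lowest value of 0.14, for sta. They were measured in the same 4 libraries, so their direction is not independent evidence either.

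The large-subunit genes, which encode the partner proteins of the 60S subunit, were the group most like the small-subunit genes. These large-subunit genes were taken by name and not split into main genes and relatives. RpLP0-like, RpL7-like and RpL24-like are thus among them. The table held 54 of the large-subunit genes, of which 51 were tested, and 49 had a higher mean in wh7, with a median log2 change of 0.34. The exceptions were RpLP0-like and RpL7-like, at -0.50 and -0.10, both named as relatives of ribosomal proteins. None of the 51 had an adjusted p under 0.05 by edgeR's test. By the same test 21 of the 51 had an unadjusted p under 0.05, all higher, against 7.23% of all genes tested. In 45 of the 51 both wh7 libraries lay above both WT libraries, against 23.8% of all genes tested. DESeq2's Wald test gave 3 of them an adjusted p under 0.05, all higher, against 3.94% of all genes. Like the small-subunit genes, then, they were shifted as a group. The ratio of summed small-subunit to large-subunit counts was 0.570 and 0.563 in WT and 0.579 and 0.577 in wh7, a log2 change of 0.03. Both wh7 ratios were above both WT ratios, by a margin far smaller than the shift of either sum. Rack1, a 40S component outside the RpS names, had 1011 and 870 CPM in WT and 1098 and 1106 in wh7, a log2 change of 0.23 (SE 0.15).

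The genes for the proteins of the mitochondrial small subunit, which share the small-subunit role but work in another ribosome, had fold changes of the opposite sign. None of the 25 mRpS genes had a higher mean in wh7, and their median log2 change was -0.23. The genotypes overlapped in 18 of them, as in 5752 of the 10795 genes tested. The other 7 were lower in wh7 with no overlap, as were 2477 of the 10795. No mRpS gene passed an unadjusted p of 0.05 in edgeR's test. In WT these genes also differed between replicates, with replicate 1 higher in 25 of 25 by a median of 0.56. Leaving out WT replicate 2 gave a median of -0.45, and leaving out WT replicate 1 one of 0.11, so its direction depended on 1 library.

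Factors that assemble the 40S subunit in the nucleolus and cytoplasm also had fold changes mostly of the opposite sign. In 21 of 22 such genes the mean was lower in wh7, with a median log2 change of -0.29. Yet the genotypes overlapped in all 22, as in 5752 of the 10795 genes tested. None of the 22 had an unadjusted p under 0.05 in edgeR's test. Fib, the nucleolar methyltransferase Fibrillarin, had 83.5 and 18.9 CPM in WT replicates 1 and 2 and 20.9 and 29.3 in wh7 replicates 1 and 2. WT replicate 1 alone stood high, at a level none of the other 3 libraries approached. The log2 change of Fib was -1.03 (SE 0.73), and 0.40 without WT replicate 1. LTV1, a late 40S factor, was the only one with a higher mean, at 0.01. Across the list WT replicate 1 exceeded WT replicate 2 in 21 of 22 genes by a median of 1.17, and leaving out WT replicate 1 moved the list's median to 0.34, leaving out WT replicate 2 to -0.78.

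Of 7 genes of TOR signalling and Myc analysed, 5 had a higher mean in wh7 and 0 had an unadjusted p under 0.05. The list's median was 0.14, and it depended on 1 library, at -0.07 when WT replicate 1 was left out and 0.26 when WT replicate 2 was. S6k, the kinase of RpS6, had 256 and 288 CPM in WT and 384 and 331 in wh7, a log2 change of 0.39 (SE 0.16, adjusted p = 0.372 in edgeR's quasi-likelihood fit), with no overlap. Myc, which drives transcription of ribosome genes, had 261 and 296 CPM in WT and 293 and 245 in wh7, a log2 change of -0.05 (SE 0.17), with overlap.

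Cell type markers also differed between the libraries. The 6 enteroendocrine markers were all lower in wh7 with no overlap, as were 2477 of the 10795 genes tested. Of the 6, 2 (AstA and AstC) passed an adjusted p of 0.05 in edgeR's test, among 25 genes called lower in all. The 6 enteroendocrine markers summed to 337 and 329 CPM in WT and 148 and 153 in wh7. The 6 enterocyte markers summed to 20996 and 21744 CPM in WT and 16595 and 16685 in wh7, 3 higher and 3 lower. Most of each enterocyte sum came from alphaTry and betaTry. The 3 progenitor markers analysed (klu, sc and E(spl)mbeta-HLH) summed to 22.9 and 28.7 CPM in WT and 24.6 and 16.8 in wh7, and 3 more were not analysed here. The 5 visceral muscle markers summed to 1404 to 1877 CPM, with overlap. The 5 fat body markers summed to 7386 and 11845 CPM in WT and 4479 and 4757 in wh7, 1 higher and 4 lower. Most of each fat body sum came from Yp1, Yp2 and Yp3. Fbp1 went the other way at trace level, with 0.0409 and 0.488 CPM in WT and 1.23 and 2.2 in wh7. The 3 Malpighian tubule markers summed to 155 to 244 CPM, highest in WT replicate 1, with most of each sum from Irk2. Uro had 108 and 17.6 CPM in WT replicates 1 and 2 and 35.3 and 45.9 in wh7 replicates 1 and 2. The part of the cell type markers in the shift of the small-subunit genes was not tested.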

How the data were processed

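Gut mRNA of 4 libraries (2 WT, 2 wh7) was prepared with the SureSelect XT HS2 kit. The authors deposited raw counts per gene for 17807 genes. The submitters' processing notes name Trimmomatic 0.36, HISAT2, StringTie 2.1.4, DESeq and DESeq2; the genome build and use of strand are not given in the sources used here. A second deposited table, with the authors' fold changes, p-values and rounded normalized counts, was not used. Library totals were 93603837 to 101610356 counts.

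Genes passing filterByExpr (10795) were fitted with edgeR 4.0.16 (TMM, quasi-likelihood test, genotype as the only term, R 4.3.3) and p-values were adjusted by Benjamini-Hochberg over all of them. Standard errors were taken from the log2 change and the F statistic (log2 change over root F). Alternatives were DESeq2 1.42.0 (Wald test), other scalings, no filter, a replicate block and leaving out each library. Scripts were tested on simulated data, where false calls at an adjusted p under 0.05 exceeded the nominal 5% with edgeR and by more with DESeq2. The calls of both are therefore less certain than their adjusted p states. Of 80 genes simulated to change 2-fold, edgeR called 7 and DESeq2 called 35. A lack of calls therefore says little about changes of that size or smaller. Exon lengths, arms and overlaps came from the BDGP6.54 annotation. With their values per library, the text gives genes from the 6 highest and 6 lowest main genes, genes whose genotypes overlapped, paralog pairs and genes with roles outside the core. The gene set and all lists were chosen with earlier results of these data known. Symbols of 5 listed genes were not matched and are not analysed here. Results for 3 of the genes are not reported singly here, though they enter the counts and medians.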

Additional observations from a re-analysis of the deposited data

How the results depend on the processing

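The count of small-subunit genes with a higher mean in wh7 (31 to 35) and their median log2 fold change (0.32 to 0.45) kept their direction under every alternative run, and the median of all genes tested stayed between -0.04 and 0.02. Counts of calls did not hold. DESeq2 gave 5 small-subunit genes an adjusted p under 0.05 in place of 0, and 859 genes over the whole table in place of 52, while edgeR without the filter on low counts gave 30. With each library left out in turn, in fits where a lone library is assumed to vary like the other genotype, the small-subunit genes at an unadjusted p under 0.05 ranged from 0 to 31 (18 with all libraries), calls over all genes from 0 to 921, and the log2 ratio of summed counts from 0.26 to 0.44. The fold change of RpS3A then ranged from -0.23 to 0.01, RpS5b from -0.25 to 0.21 (0.07 without wh7 replicate 2), sta from -0.02 to 0.32 and RpS2 from -0.06 to 0.43. The cause was not tested.

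Libraries of WT and wh7 share replicate numbers, but nothing says that a number marks a shared batch. The deviations of WT replicate 1 and wh7 replicate 1 from their genotype means correlated at -0.15 over 10795 genes. With the number as a replicate block, 1 small-subunit gene had an unadjusted p under 0.05, 0 genes were called over the whole table, and the adjusted p of wuho was 0.0545. Leaving out wh7 replicate 1 gave it 0.242, and leaving out wh7 replicate 2 gave 0.207.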
